A study of Homo sapiens with 24 samples.

Results

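The genes described here are the human ZNF genes, zinc finger genes with a ZNF number as their symbol, whose transcripts were detected on every array of the series. A member has a probe with a detection p-value under 0.05 on all 24 arrays, and the probe of highest mean signal stands for its gene. Of 483 ZNF symbols on the array, 321 (66.5%) met this rule, against 51.3% of all 20046 named genes. The rule used detection and brightness, so neither is a finding here, while the differences between groups were not used by it. RNA of DU145 cells, an established human prostate cancer line, was measured on Illumina BeadChips in 2 experiments. In the pulldown, cells were transfected with biotinylated miR-17, miR-638 or the non-targeting controls NC2 or NC1, and the RNA recovered with the biotin was measured (3 arrays each). In the mimic experiment, cells received a mimic of miR-638, NC2 or NC1 without selection by biotin, and their total RNA was measured (4 arrays each), with no miR-17 mimic among them. The labels give no separate cultures for the replicates, so p-values measure the spread between these arrays, which may be technical. No array of unselected RNA from the pulldown cells was analysed here, so capture by the biotinylated microRNA and the transcript's amount in those cells cannot be told apart in any pulldown difference.

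Most ZNF genes encode proteins with an array of C2H2 zinc fingers, loops held by a zinc ion that read DNA sequence. Many also carry a KRAB domain, which recruits TRIM28 and, through it, the methyltransferase SETDB1 and heterochromatin proteins to silence repeats and genes. Large clusters of such genes lie on human chromosome 19. A microRNA guides Argonaute to transcripts that pair mainly with its seed, bases 2 to 8, and a biotin tag on the microRNA allows transcripts held with it to be recovered. The sequences of both microRNAs, from RefSeq on GRCh38.p14, are shown because they are the baits compared, with the seed in capitals. They run 5′ to 3′, both from the plus strand. The labels do not say which arm of miR-17 was used, and its 5p arm is printed.
hsa-miR-17-5p: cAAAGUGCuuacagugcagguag
hsa-miR-638: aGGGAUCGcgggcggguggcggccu
The miR-17-5p sequence lies at chr13:91350618-91350640 and that of miR-638 at chr19:10718419-10718443. G and C make up 47.8% of the bases of miR-17-5p and 80% of those of miR-638.

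All 321 members matched RefSeq by gene identifier, on 21 chromosomes. Chromosome 19 held 140 of them (43.6%), and 4 are transcribed pseudogenes by RefSeq, ZNF252P, ZNF286B, ZNF815P and ZNF876P. Of the 162 ZNF genes left out, 51 were detected on 0 arrays and 111 on 1 to 23. Just inside the limit lay ZNF431, ZNF367 and ZNF420, with a highest detection p of 0.0442, 0.0429 and 0.0416. Just outside lay ZNF778 and ZNF80, each at 0.0597, and ZNF764 at 0.0623. Of the markers checked, 4 of 5 epithelial genes were detected on all 24 arrays (the other, KRT18, on 16), KLK3 and KLK2 of luminal prostate cells on 0, and 0 of 3 blood and 0 of 4 fibroblast genes on all 24, though COL1A1 and COL1A2 were detected on 22 and 23. Mean deposited signal per array was 428 to 629 in the pulldown and 300 to 463 after the mimics.

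1 array stood apart for these genes. On NC1 pulldown replicate 2, 22 members (6.85%) lay more than 1 log2 unit above their mean over the other 11 pulldown arrays, against 0 to 3 members on each of the others. Among all genes detected on all 24 arrays, 3.12% did so on that array. The names NC1 and NC2 of the control pulldowns are exchanged between the deposited signal table, followed here, and the authors' deposited value table, where this array carries the name NC2. Averaging the 2 control groups removes the effect of this naming.

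The comparison of miR-17 with both control pulldowns asks which transcripts were recovered more with that microRNA than with a non-targeting bait. Among the members, ZNF77 differed most. Its level was 10.71, 10.56 and 10.65 (log2) with miR-17, against 8.18, 8.68 and 8.53 with NC2 and 8.36, 8.22 and 8.54 with NC1. The groups were well apart, a difference of 2.22 (SE 0.12, 4.66-fold, n = 3 against 6, limma adjusted p = 5.36e-08). ZNF138 was at 9.03, 8.82 and 8.92 with miR-17, against 7.11, 7.77 and 7.59 with NC2 and 7.49, 7.49 and 7.63 with NC1. Here too every miR-17 array lay above every control array, by 1.41 on average (SE 0.15, adjusted p = 2.41e-05). ZNF443 was at 9.56, 9.54 and 9.80 with miR-17, against 8.32, 8.63 and 8.35 with NC2 and 8.36, 8.34 and 8.35 with NC1. Its control arrays were tightly grouped apart from NC2 replicate 2, and the difference was 1.24 (SE 0.11, adjusted p = 3.56e-06).

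ZNF706 encodes a small protein with 1 zinc finger, described in mouse embryonic stem cells as a repressor tied to the exit from self-renewal. It was at 9.43, 9.35 and 9.41 with miR-17, against 8.17, 8.18 and 8.44 with NC2 and 8.47, 8.17 and 8.62 with NC1, a difference of 1.05 (SE 0.11, adjusted p = 3.39e-05). A second probe of ZNF706 gave 1.05 (adjusted p = 1.79e-04). ZNF784 was at 7.65, 7.35 and 7.44 with miR-17, against 6.78, 6.19 and 6.48 with NC2 and 6.82, 6.21 and 6.21 with NC1. ZNF254 was at 8.49, 8.41 and 8.60 with miR-17, against 7.62, 7.97 and 7.94 with NC2 and 7.55, 7.45 and 7.82 with NC1. Neither gene's groups overlapped, with differences of 1.04 (SE 0.17) and 0.77 (SE 0.12). All 6 passed against NC2 alone and against NC1 alone, with differences between 0.65 and 2.27, and in every fit that left out 1 pulldown array.

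In all, 31 members were higher and 28 lower with miR-17, where 8.27% of the 13101 genes tested were higher and 5.96% lower. Among the 10270 tested genes detected on all 24 arrays, which match the members in detection, 9.67% were higher and 7.15% lower. The member counts are 9.66% and 8.72% of 321, so the share of higher members is that of the background. The median difference was 0.023 over the members and 0.00095 over all genes tested. At least 2-fold, 5 members were higher and 9 lower, against 87 and 94 of the 13101 genes tested. Among the 10270 detected on all 24 arrays the counts were 70 and 86. Without 1 of the miR-17 arrays, 14 to 18 members were higher and 7 to 9 lower. The shares of all genes in those fits are not given here, so this fall is not read as particular to ZNF genes. The other 25 members that were higher differed by 0.25 (ZNF627) to 0.73 (ZNF581).

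**Figure D1:**
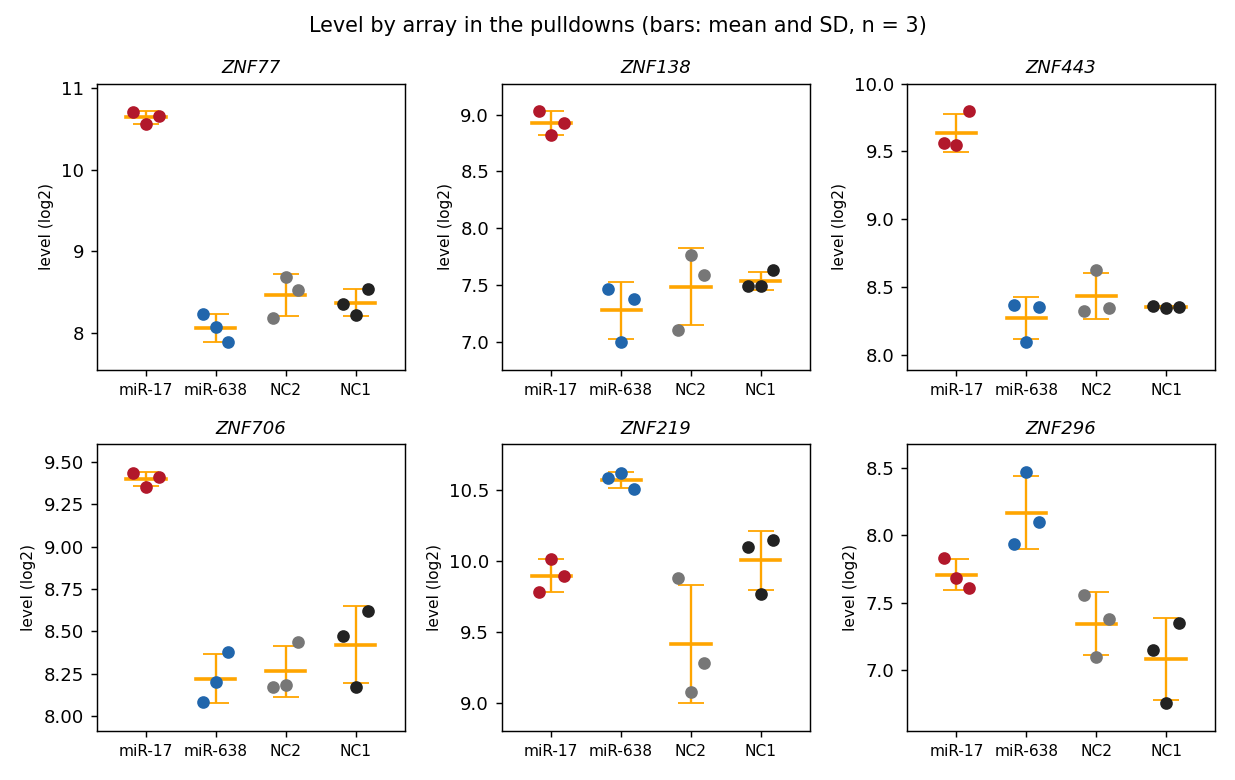
Level (log2, vertical axis) of 6 ZNF genes on each pulldown array, by bait, with the mean and SD of each group (n = 3). The miR-17 arrays of ZNF77, ZNF138, ZNF443 and ZNF706 lie above all other arrays, and the miR-638 arrays of ZNF219 and ZNF296 lie above all others.

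The 6 members of largest decrease with miR-17 were ZNF483, ZNF682, ZNF549, ZNF14, ZNF394 and ZNF577. ZNF483 was at 8.11, 8.14 and 8.11 with miR-17, against 9.16, 9.69 and 8.48 with NC2 and 9.48, 11.35 and 9.38 with NC1, a difference of -1.47 (SE 0.35, adjusted p = 0.0132). ZNF682 was at 10.12, 10.20 and 9.98 with miR-17, against 11.13, 11.64 and 10.56 with NC2 and 11.36, 13.33 and 11.17 with NC1, a difference of -1.43 (SE 0.36). In both, the miR-17 arrays lie below all control arrays, and NC1 replicate 2 is far above the other 5. ZNF549 was at 11.11, 11.36 and 11.11 with miR-17, against 12.13, 12.56 and 11.90 with NC2 and 12.42, 13.81 and 12.27 with NC1, a difference of -1.32 (SE 0.27, adjusted p = 0.00442). The differences of ZNF14, ZNF394 and ZNF577 were -1.29, -1.25 and -1.19 (SE 0.30, 0.33 and 0.29), with the same high array.

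All 6 belong to 20 members that stood high on NC1 pulldown replicate 2. There each of the 20 lay more than 1 log2 unit above its mean over the other 5 control arrays, by 1.03 to 2.15. The corresponding count was 1 on NC2 replicate 3 and 0 on the other control arrays. These 20 were picked by that array and are described, not tested: ZNF14, ZNF69, ZNF223, ZNF394, ZNF418, ZNF430, ZNF483, ZNF486, ZNF549, ZNF557, ZNF577, ZNF652, ZNF669, ZNF682, ZNF692, ZNF738, ZNF763, ZNF786, ZNF789 and the pseudogene ZNF876P, 12 of them on chromosome 19. Of the 28 members lower with miR-17, 13 are among them and 15 are not. For 15 of the 20, the miR-17 arrays also lay below all 5 other control arrays, as they did for 38 of all 321 members (11.8%) and for 9.32% of all genes tested. Nothing is read from the share among the 20, since the same control arrays entered their choice. Without NC1 replicate 2, ZNF483 differed by -1.15 (adjusted p = 6.36e-04), ZNF549 by -1.08 (adjusted p = 6.14e-05) and ZNF682 by -1.09, while ZNF14, ZNF394 and ZNF577 differed by -0.9992, -0.92 and -0.92, all of them past the test. Then 30 members were higher and 38 lower with miR-17, with the share of all genes in that fit not given here. Against NC2 alone none of the 6 passed, with differences of -0.91 to -1.01 and adjusted p of 0.0503 to 0.146. Without 1 of the miR-17 arrays ZNF483, ZNF682, ZNF394 and ZNF577 had adjusted p of 0.0508 to 0.0893, whichever array it was. ZNF14 had 0.0612 without replicate 1 and 0.0563 without replicate 3.

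**Figure D2:**
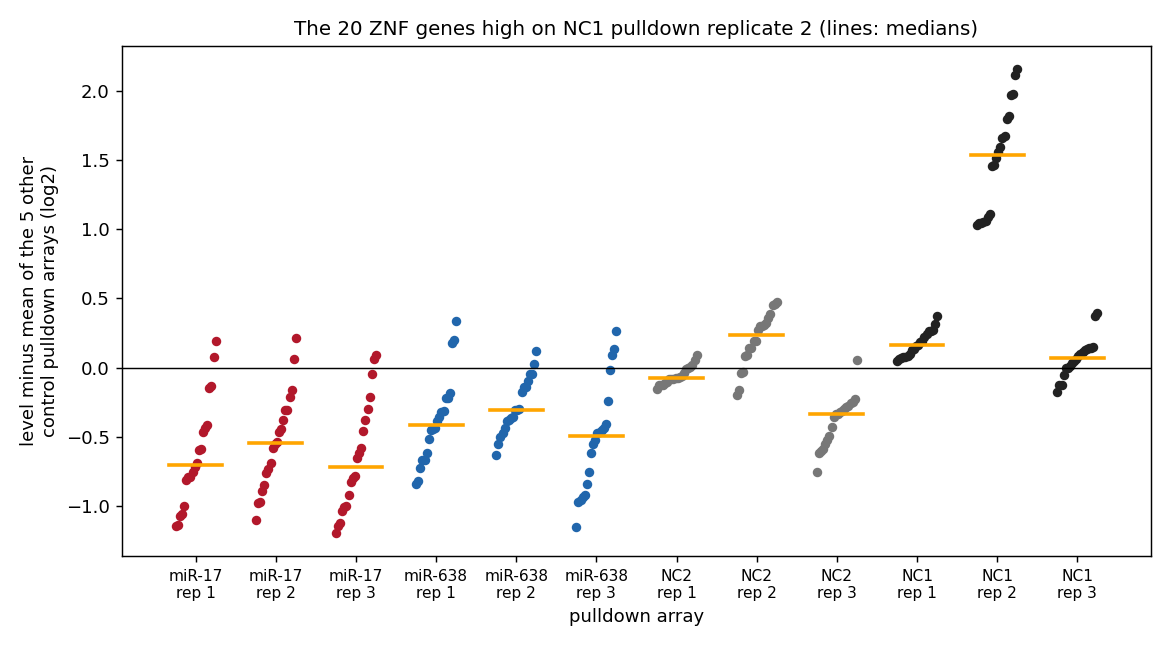
Level of 20 ZNF genes on each pulldown array, minus each gene's mean over the 5 other control arrays (log2, vertical axis), with the median per array as a line. The genes were chosen for NC1 replicate 2, where they lie 1.03 to 2.15 above 0, and most of their points on the miR-17 and miR-638 arrays lie below 0.

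Of the 59 members that passed with miR-17, 14 have a second probe detected on all 24 arrays. Where the member probe of ZNF682 differed by -1.43, the second differed by 0.37 (adjusted p = 0.154, adjusted over all probes). The second probe gave 0.034 for ZNF14, -0.15 for ZNF394, -0.30 for ZNF549, 0.27 for ZNF69, -0.11 for ZNF430 and 0.095 for ZNF669, and none of these passed. On NC1 replicate 2 the second probe lay below its mean over the other control arrays in 7 of the 9 high members that have one. The largest such gap was 0.94 (ZNF669). For ZNF69 (0.74) and ZNF789 (1.09) the second probe lay above that mean. ZNF84 was lower at both its probes, -0.47 and -0.79 (adjusted p = 0.0257 and 0.0109). Among the 5 higher members with a second probe all 5 second probes were above 0, and that of ZNF706 passed. Which transcript forms the probes detect was not analysed here.

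**Figure D3:**
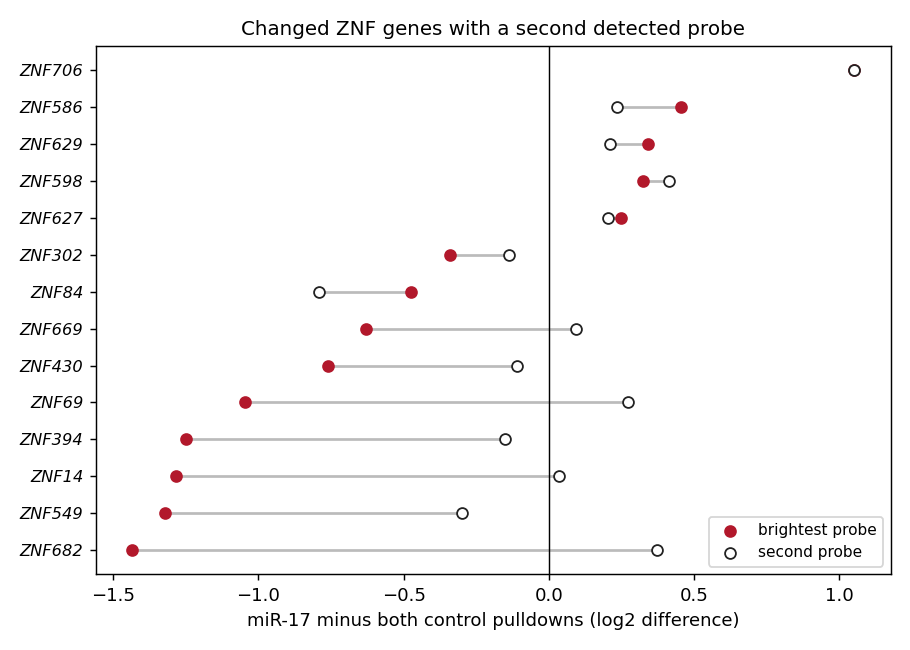
Difference between miR-17 and both control pulldowns (log2, horizontal axis) at the brightest probe (filled) and at a second probe (open) of the 14 changed ZNF genes that have one. The probes of ZNF706 coincide at 1.05, while ZNF682 lies at -1.43 with one probe and at 0.37 with the other.

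With miR-638, 10 members were higher and 16 lower than in both control pulldowns, where 6.57% and 4.58% of all genes tested were higher and lower (7.76% and 5.46% of those detected on all 24 arrays). The member counts are 3.12% and 4.98% of 321. The median difference was -0.055 over the members and -0.0063 over all genes tested, and 38.9% of members against 48.9% of all genes lay above 0. No member was 2-fold higher, and 2 were 2-fold lower, against 38 and 52 of the 13101 genes tested. Among the 10270 detected on all 24 arrays the counts were 31 and 41. Without 1 of the miR-638 arrays, 5 to 9 members were higher and 3 to 5 lower, with the shares of all genes in those fits not given here.

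ZNF296 was at 7.93, 8.47 and 8.10 with miR-638, against 7.56, 7.10 and 7.38 with NC2 and 7.15, 6.76 and 7.35 with NC1. All miR-638 arrays were above all control arrays, by 0.95 (SE 0.16, 1.93-fold, n = 3 against 6, limma adjusted p = 0.00193). ZNF219, a transcription repressor, was at 10.59, 10.62 and 10.51 with miR-638, against 9.88, 9.08 and 9.28 with NC2 and 10.10, 9.77 and 10.15 with NC1. The miR-638 arrays were close to each other and the control arrays spread widely, with a difference of 0.86 (SE 0.14, adjusted p = 0.00192), 0.57 against NC1 alone and 1.16 against NC2 alone. ZNF467, known in mouse for a role in the choice between fat and bone cells, was at 8.78, 8.94 and 8.83 with miR-638, against 8.32, 7.91 and 8.60 with NC2 and 7.96, 7.88 and 7.89 with NC1, a difference of 0.76 (SE 0.13). ZNF408, mutated in inherited retinal disease, was at 8.47, 8.59 and 8.62 with miR-638, against 7.87, 7.85 and 7.71 with NC2 and 7.95, 7.74 and 8.11 with NC1, a difference of 0.69 (SE 0.11, adjusted p = 0.00126). These 4 passed in every fit without 1 array. ZNF385A and ZNF358 were higher by 0.75 and 0.64 (SE 0.18 and 0.16), and ZNF593, ZNF579, ZNF580 and ZNF511 by 0.32 to 0.63. ZNF385A had adjusted p of 0.0904 and 0.0764, and ZNF358 of 0.0679 and 0.125, without miR-638 replicate 1 or 2, and ZNF385A had 0.11 against NC1 alone.

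Among the decreases, ZNF791 was at 8.07, 8.53 and 8.29 with miR-638, against 9.28, 8.85 and 8.96 with NC2 and 9.20, 8.81 and 9.02 with NC1, a difference of -0.72 (SE 0.13, adjusted p = 0.00301). ZNF770 was at 10.64, 10.62 and 10.44 with miR-638, against 10.97, 11.26 and 11.04 with NC2 and 11.04, 11.11 and 11.16 with NC1, a difference of -0.53 (SE 0.08, adjusted p = 0.001). NC1 replicate 2 was not the highest array of either, and both passed in every fit without 1 array. ZNF549, one of the genes high on that array, was at 11.44, 11.71 and 11.11 with miR-638, a difference of -1.10 from both controls (SE 0.27), and its second probe differed by -0.40 (adjusted p = 0.211). ZNF773, ZNF512 and ZNF346, the last a protein that binds double-stranded RNA, differed by -0.65, -0.53 and -0.53. Without 1 miR-638 array, ZNF549 (replicate 1 or 3), ZNF773 (1 or 3), ZNF512 (1, 2 or 3), ZNF346 (2 or 3) and ZNF680 (2 or 3) had adjusted p of 0.0511 to 0.138. Against NC2 alone ZNF549, ZNF773, ZNF512 and ZNF346 had 0.133 to 0.177. Without NC1 replicate 2, 10 members were higher and 29 lower with miR-638, and without NC2 replicate 1 18 were higher and 24 lower. Leaving out an array changes the spread of every gene. The shares of all genes in these fits are not given here, so no change particular to ZNF genes is read from them.

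Set directly against miR-638, miR-17 recovered 19 members more and 2 less, with no control array in the difference. Of all genes tested 5.12% were higher and 3.29% lower (6.18% and 4.03% of those detected on all 24 arrays). The member counts are 5.92% and 0.623% of 321, and the median difference was 0.038 over the members and 0.0029 over all genes tested. ZNF77 was at 10.71, 10.56 and 10.65 with miR-17 and 8.23, 8.08 and 7.88 with miR-638, a difference of 2.58 (SE 0.14, 5.96-fold, n = 3 against 3, limma adjusted p = 6.51e-08). ZNF138, with miR-638 arrays at 7.47, 6.998 and 7.38, differed by 1.64 (SE 0.17). ZNF443, with miR-638 arrays at 8.36, 8.09 and 8.35, differed by 1.37 (SE 0.12), and ZNF706, at 8.09, 8.21 and 8.38, by 1.17 (SE 0.13, second probe 1.26). The miR-638 arrays of these 4 genes lay within or below the range of the control arrays. ZNF254 differed by 0.90 (SE 0.14, adjusted p = 8.21e-04).

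ZNF680 was the one member that passed in opposite directions against the controls with the 2 microRNAs, while 10 members passed in the same direction. Both counts rest on the same control arrays, and the shares of all genes that did so are not given here. ZNF680 was at 10.27, 10.12 and 10.37 with miR-17 and 9.49, 9.27 and 9.37 with miR-638, against 9.89, 9.82 and 9.62 with NC2 and 9.69, 9.59 and 9.69 with NC1. It was 0.53 with miR-17 and -0.34 with miR-638 relative to the shared controls, and 0.87 between the microRNAs (SE 0.10, adjusted p = 7.48e-05). ZNF57 and ZNF770 differed by 0.83 and 0.47 between the microRNAs, with 0.36 and -0.063 for miR-17 against the controls and -0.47 and -0.53 for miR-638 against them. In the other direction, ZNF219 was at 9.79, 10.02 and 9.90 with miR-17 and 10.59, 10.62 and 10.51 with miR-638, a difference of -0.67 (SE 0.17, adjusted p = 0.0211). ZNF704 was at 8.87, 9.05 and 8.97 with miR-17 and 9.39, 9.42 and 9.35 with miR-638, a difference of -0.42 (SE 0.10, adjusted p = 0.0202). ZNF219 and ZNF704 did not pass without any 1 of the miR-638 arrays or without miR-17 replicate 1 or 3, and ZNF410 without any 1 of the miR-638 arrays or without miR-17 replicate 2 or 3, with adjusted p of 0.0544 to 0.113. Without 1 array, the counts ran from 10 higher and 0 lower (miR-638 replicate 1) to 34 and 5 (NC1 replicate 2, which enters only the estimate of spread). The shares of all genes in those fits are not given here. In every such fit 10 members passed: ZNF18, ZNF57, ZNF77, ZNF138, ZNF254, ZNF443, ZNF480, ZNF680, ZNF706 and ZNF770.

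**Figure D4:**
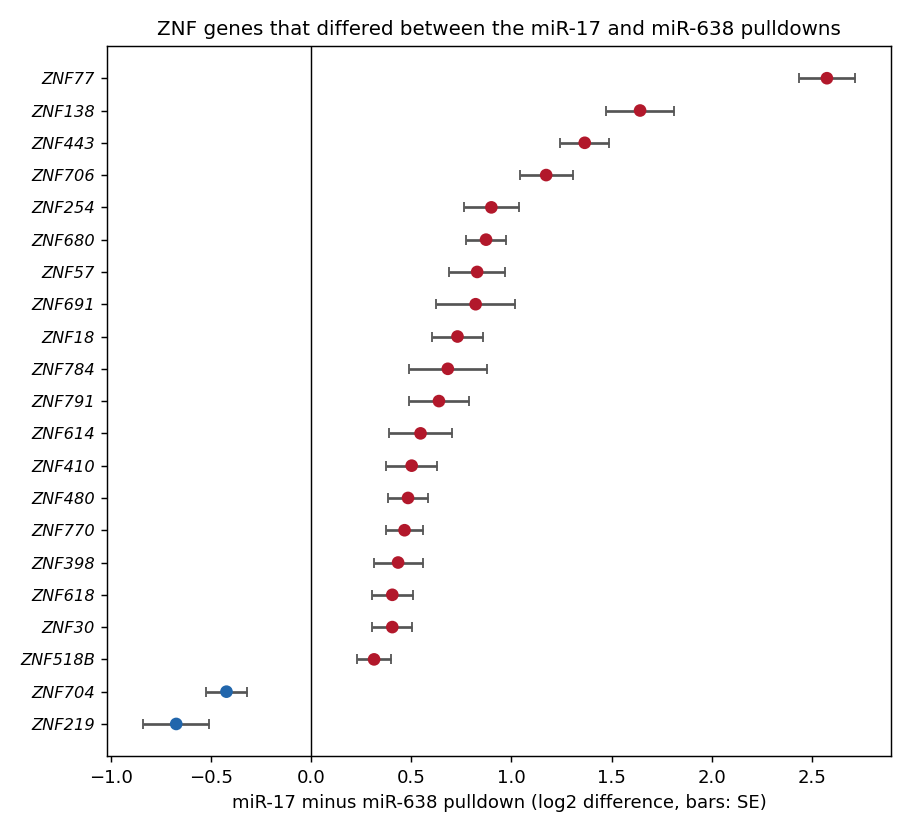
Difference between the miR-17 and the miR-638 pulldown (log2, horizontal axis, with SE, n = 3 each) of the 21 ZNF genes past the test. The 19 above 0 run from ZNF518B at 0.31 to ZNF77 at 2.58, and the 2 below 0 are ZNF704 and ZNF219.

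By described role, 9 members were listed for links to RNA or ribosomes, ZNF706 among them. With miR-17, 2 of the 9 were higher and 1 lower, where 8.27% and 5.96% of all genes tested were: ZNF706 as above, ZNF598, the ubiquitin ligase that recognises collided ribosomes, (0.33, adjusted p = 0.0137), and ZNF346 (-0.41). With miR-638, 2 were higher and 1 lower, where 6.57% and 4.58% of all genes tested were: ZNF593, which helps to build the large ribosomal subunit, by 0.63 (adjusted p = 0.0031), ZNF385A, an RNA-binding partner of p53, by 0.75, and ZNF346, with -0.53. ZNF706 was the 1 of 9 that passed between the microRNAs. The differences of ZNF385A and ZNF593 between the microRNAs were -0.64 (adjusted p = 0.0765) and -0.34 (adjusted p = 0.134), and that of ZNF598 0.29.

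Of 14 sequence-specific regulators with a described role, 2 were higher and 2 lower with miR-17 (8.27% and 5.96% of all genes tested) and likewise with miR-638 (6.57% and 4.58% of all genes tested). ZNF143, an activator at many promoters, and its relative ZNF76 were lower with miR-17 (-0.49 and -0.41), and ZNF395 and ZNF467 higher (0.29 and 0.43). ZNF395 also differed between the controls, and lay at 11.26, 11.13 and 11.01 with miR-17, against 10.52, 10.64 and 10.49 with NC2 and 11.13, 11.24 and 11.04 with NC1. With miR-638, ZNF219 and ZNF467 were higher, and ZNF76 and ZNF410 lower (-0.42 and -0.40). ZNF410 is known for activating CHD4, a chromatin remodeller, and was at 10.03, 10.27 and 10.14 with miR-17 and 9.72, 9.55 and 9.66 with miR-638, a difference of 0.50 (adjusted p = 0.0251). CHD4 itself differed by 0.24 (adjusted p = 0.0752). ZNF148, which binds GC-rich promoters, differed by -0.88 (adjusted p = 0.17). Without NC1 replicate 2, which enters only the estimate of spread, ZNF148 passed with the same difference (adjusted p = 0.00205).

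Against the same shares of all genes, of 8 silencers of repeats and genes 0 were higher and 1 was lower with miR-17, ZNF10, whose KRAB domain is used in CRISPR interference (-0.58, adjusted p = 0.0453). With miR-638 0 were higher and 1 was lower, ZNF93, which represses LINE-1 elements (-0.50, adjusted p = 0.0238). ZNF93 was weakly detected, with a mean level of 5.40 with miR-638 and a highest detection p of 0.0234. Between the microRNAs 0 of 8 passed. There ZNF93 differed by 0.46, ZNF268 by -0.47, ZNF140 by 0.11 and ZNF202 by 0.067, with adjusted p of 0.078 to 0.804. Of 21 genes listed as partners of KRAB zinc fingers and other chromatin silencers, none of them a ZNF gene, 1 was higher and 1 lower with miR-17, SUMO2 (0.31) and PPHLN1 (-0.32). With miR-638, HDAC1 (0.30) and CBX1 (0.48) were higher, and DNMT1 (-0.26) and SETDB1 (-0.32) lower. SUMO2 differed by 0.32 and HDAC1 by -0.31 between the microRNAs, past the test. TRIM28, the first partner of KRAB, differed by 0.24 with miR-17 and 0.099 with miR-638 (adjusted p = 0.0787 and 0.491).

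Other families of C2H2 genes, 59 genes named ZBTB, ZSCAN, ZKSCAN or ZFP and detected on all 24 arrays, gave 9 higher and 2 lower with miR-17 (15.3% and 3.39%, where 8.27% and 5.96% of all genes tested were) and 4 higher and 0 lower with miR-638 (6.78% and 0%, where 6.57% and 4.58% were). Between the microRNAs 5 were higher and 1 lower (8.47% and 1.69%, where 5.12% and 3.29% were), among them ZBTB5 (1.13, adjusted p = 1.08e-05), ZFP3 (0.99), ZFP30 (0.83) and ZFP1 (0.81), chosen as named examples after their values were seen. By place, the 140 members on chromosome 19 gave 13 higher and 13 lower with miR-17 (both 9.29%), 4 and 8 with miR-638 (2.86% and 5.71%), and 9 and 0 between the microRNAs (6.43% and 0%). The 181 members elsewhere gave 18 and 15 (9.94% and 8.29%), 6 and 8 (3.31% and 4.42%), and 10 and 2 (5.52% and 1.1%). The other C2H2 families, both groups by place and the listed members by role were all chosen for detection on all 24 arrays. Among all genes so detected, 9.67% were higher and 7.15% lower with miR-17, and 7.76% and 5.46% with miR-638. Between the microRNAs 6.18% and 4.03% were. These shares match those counts in detection, where the shares of all genes tested do not. Chromosome 19 was not tested against the rest. ZNF77, ZNF443, ZNF254, ZNF682, ZNF549 and ZNF296 lie on chromosome 19.

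The miR-638 mimic asks which transcripts change in total RNA when miR-638 is raised. 4 members were higher and 0 lower, where 2.01% of the 12646 genes tested were higher and 1.33% lower (2.34% and 1.6% of those detected on all 24 arrays). At an unadjusted p under 0.05, 12 members were higher and 27 lower, where 7.67% and 7.02% of all genes tested were. Arrays of the same replicate number deviated together, replicates 1 and 2 apart from 3 and 4. With the replicate number as a block, 15 members were higher and 24 lower, where 10.2% and 9.09% of all genes were, the 4 called without the block among them. Within replicates 1 and 2, 13 members were higher and 27 lower (9.43% and 8.19% of all genes), and within 3 and 4, 6 and 4 (3.87% and 2.85%). The median difference was -0.057 over the members and -0.0047 over all genes tested, and 33.96% of members against 49.1% of all genes lay above 0. Between the control mimics (NC2 minus NC1) the medians were 0.047 and 0.0081, with 57.9% and 51.5% above 0. The members' median deviation per array ran from -0.087 (miR-638 replicate 4) to 0.114 (NC2 replicate 2). A shift of the members as a whole was not tested.

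ZNF219, recovered more with miR-638, was at 7.96, 7.82, 8.54 and 8.53 after the miR-638 mimic, against 8.73, 8.72, 9.13 and 9.20 after NC2 and 8.55, 8.43, 9.10 and 9.10 after NC1. Within replicates 1 and 2, and within 3 and 4, both miR-638 arrays were below all 4 control arrays. The difference was -0.66 (SE 0.18, n = 4 against 8, limma adjusted p = 0.0801, with the block 4.60e-07), -0.72 within replicates 1 and 2 and -0.60 within 3 and 4. Of the 10 members higher in the miR-638 pulldown, 0 were lower after the mimic without the block and 1, ZNF219, with it, and 7 lay below 0, where 66% of all members did. Of the others, ZNF467 differed by 0.50 (adjusted p = 0.522, with the block 0.00188), ZNF408 differed by -0.11 and ZNF296 by -0.0017. The mean of ZNF467 was 8.06 after the miR-638 mimic, against 7.96 after NC1 and 7.17 after NC2, its lowest group. ZNF77, the member of largest increase in the miR-17 pulldown, was at 7.40, 7.45, 7.19 and 7.22 after the miR-638 mimic, against 7.78, 7.82, 7.45 and 7.45 after NC2 and 7.76, 7.83, 7.61 and 7.51 after NC1, a difference of -0.34 (adjusted p = 0.124, with the block 0.00232).

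Of the 4 members called higher, ZNF280D was at 7.46, 7.48, 7.69 and 7.55 after the miR-638 mimic, against 6.90, 7.08, 7.31 and 7.34 after NC2 and 7.13, 7.02, 7.14 and 7.20 after NC1. Its groups did not overlap, and the difference was 0.41 (SE 0.10, adjusted p = 0.043). A second probe of ZNF280D differed by 0.22 and did not pass (adjusted p = 0.479, adjusted over all probes). The member probe of ZNF280D had adjusted p of 0.0624 to 0.124 in 10 of the 12 fits without 1 mimic array. It failed against each control alone (0.0602 and 0.0782), and had 0.00116 with the block. For the other 3, NC2 was the lowest group. ZNF185, a cytoskeletal LIM-domain protein rather than a zinc finger of the C2H2 kind, was at 9.45, 9.38, 9.25 and 9.22 after the miR-638 mimic, against 8.27, 8.32, 8.52 and 8.60 after NC2 and 9.27, 9.21, 9.16 and 9.25 after NC1. The miR-638 and NC1 arrays overlap, while NC2 lies below both. Against NC1 alone the differences were 0.10 for ZNF185, 0.13 for ZNF217, an oncogene amplified in breast cancer, and 0.28 for ZNF268 (adjusted p of 0.34 to 0.807). Against NC2 alone they were 0.90, 0.69 and 0.85. UHRF1, a reader of methylated DNA listed with the partners, was the 1 of 20 measured that was higher without the block (0.37, adjusted p = 0.0157), and 0 were lower. With the block 3 were higher, UHRF1, CBX1 (0.48, adjusted p = 0.00117) and TASOR (0.37, adjusted p = 0.00594), and 1 was lower, SETDB1 (-0.25, adjusted p = 0.0198), where 10.2% and 9.09% of all genes were. The mean of CBX1 was 9.52 after the miR-638 mimic, against 9.40 after NC1 and 8.66 after NC2, its lowest group.

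**Figure D5:**
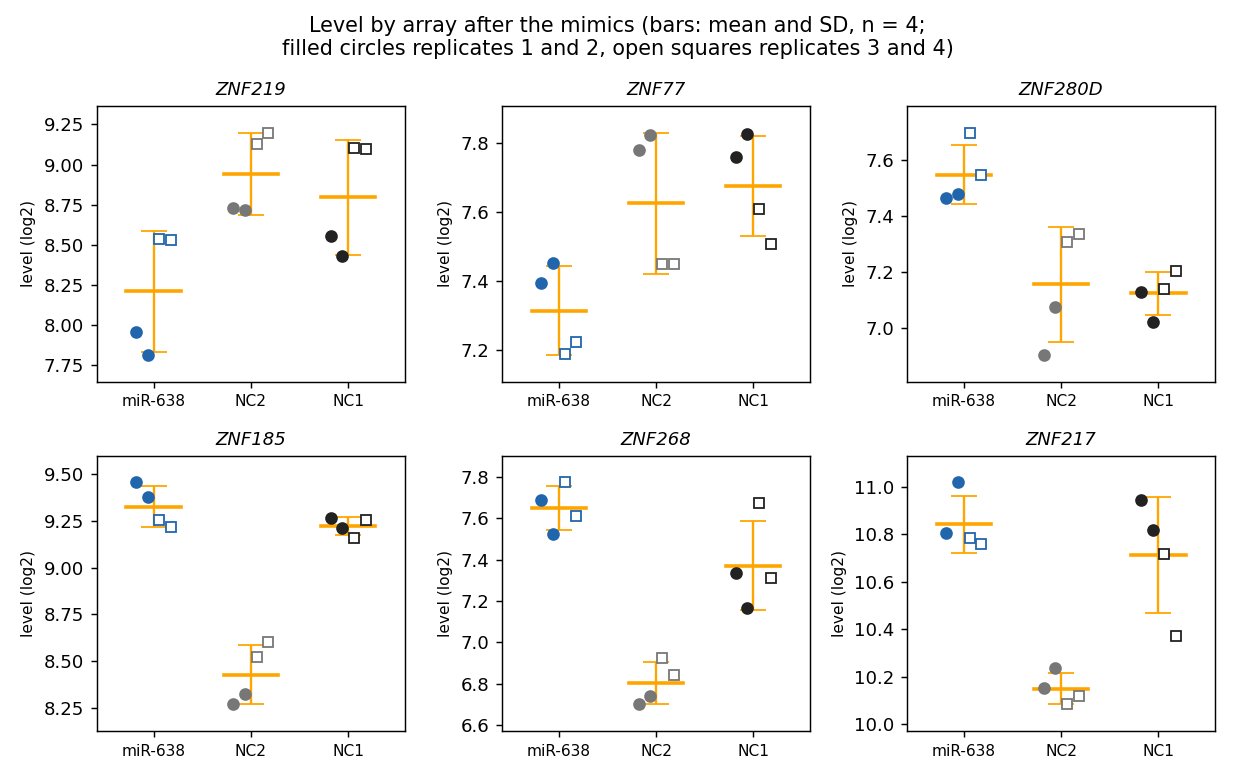
Level (log2, vertical axis) of 6 ZNF genes on each mimic array, with the mean and SD of each group (n = 4), filled circles for replicates 1 and 2 and open squares for 3 and 4. ZNF219 and ZNF77 are lower with miR-638 within each pair of replicates, and NC2 lies below both other groups for ZNF185, ZNF268 and ZNF217.

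The controls themselves differed. In the pulldown 3 members were higher and 6 lower with NC2 than with NC1, where 3.07% and 1.63% of all genes tested were (3.67% and 1.92% of those detected on all 24 arrays). ZNF367 was at 6.45, 6.08 and 6.73 with NC2 and 5.11, 5.99 and 5.36 with NC1 (0.94, SE 0.22, adjusted p = 0.0248). It is one of the members nearest the detection limit, with a highest detection p of 0.0429. ZNF32 was higher by 0.66 and ZNF185 by 0.52, while ZNF789, ZNF524 and ZNF70 were lower with NC2 (-0.87, -0.72 and -0.63). Except for ZNF32, each of these failed without 1 or more of the arrays (adjusted p of 0.0515 to 0.182). A second probe of ZNF32 differed by 0.0081 and did not pass (adjusted p = 0.992, adjusted over all probes). After the mimics 7 members were higher and 9 lower with NC2 than with NC1, where 5.14% and 4.96% of all genes tested were (6.07% and 5.66% of those detected on all 24 arrays). With the block the counts were 47 and 30 (16.7% and 16.2% of all genes), within replicates 1 and 2 they were 39 and 25 (14.3% and 13.8%), and within 3 and 4 they were 21 and 15 (8.75% and 8.33%). ZNF367 was at 6.36, 6.56, 6.59 and 5.997 after NC2 and 7.84, 7.40, 7.61 and 7.69 after NC1 (-1.26, SE 0.15, adjusted p = 2.02e-04). ZNF185 and ZNF268 were lower after NC2 (-0.79 and -0.57), and ZNF81, ZNF226 and ZNF462 higher by 0.59, 0.57 and 0.55. ZNF81 and ZNF226 failed without 1 of several arrays (adjusted p of 0.0504 to 0.111).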

How the data were processed

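The deposited intensity of 47323 Illumina probes on 24 arrays was background-subtracted and not normalized between arrays, as its values show, and stands beside a deposited detection p-value per probe and array. The authors' deposited value table is log2, floored at 4, and its normalization is not given in the sources used here. The members and gene lists were chosen with earlier results of these data known. Within each experiment the deposited intensity was corrected and quantile-normalized with neqc (limma 3.58.1, R 4.3.3, offset 16), using the detection p-values to estimate background. Genes with detection p under 0.05 on at least 3 pulldown or 4 mimic arrays were kept, 1 probe of highest mean signal per symbol, leaving 13101 and 12646 genes. Group means were fitted with limma (trended eBayes, two-sided), adjusted by Benjamini-Hochberg over all genes tested and called under 0.05. "Both controls" is the mean of the NC2 and NC1 means. In the text, "higher", "lower" and "passed" without an adjusted p mean a call.

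GEO's platform annotation gave 1 symbol to 30113 probes, several to 8 and none to 17202, and symbols were checked in the RefSeq table of GRCh38.p14. Named were the 6 largest called changes each way whose arrays do not overlap (3 between controls), the members nearest the detection limit, those called in opposite directions with the 2 microRNAs or higher in the miR-638 pulldown and lower after the mimic, and up to 4 of smallest p per list. Other genes were named after their values were seen. Members of highest and lowest level are not ranked, since probes differ in brightness. In the mimic experiment, residuals of arrays with the same replicate number correlated at 0.681 to 0.77, which was taken as pairing. Those of arrays with different numbers correlated at -0.753 to 0.74, so these ranges overlap. In the pulldown the same-number range was -0.328 to 0.557, which was not taken as pairing, and the range for different numbers -0.518 to 0.402. The fits were also run on simulated arrays with known differences, drawn independently, without pairing and without an array standing apart. They do not show how the fits behave with the pairing and the high array of these data. Alternatives were the background correction, scaling, value table, filter, probe choice, block, each control alone and each array left out. Array precision is limited by the number of arrays. Protein domains and seed matches in the members were not analysed here. Figures were drawn with matplotlib 3.10.9.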

Additional observations from a re-analysis of the deposited data

Results flagged for a closer look

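For 7 of 321 members (2.18%), every NC2 array lay on one side of every NC1 array in the pulldown and on the other side after the mimics, against 3.84% of all 12239 genes tested in both experiments. Of these 7, 2 (0.623%, against 1.31% of all genes) were also past the test in both experiments. ZNF185 differed by 0.52 (NC2 minus NC1, log2) in the pulldown and by -0.79 after the mimics. ZNF367, just inside the detection limit (highest detection p 0.0429), differed by 0.94 in the pulldown and by -1.26 after the mimics. ZNF32, the third member past the test in both, differed by 0.66 in the pulldown and -0.71 after the mimics, where its arrays overlapped. Its second probe differed by 0.0081 in the pulldown and -0.21 after the mimics, and passed in neither. The signs were opposite in all 3, in 190 of 321 members (59.2%) and in 56.7% of all genes. The difference between the experiments was not tested. In the authors' deposited value table, where the names of the control pulldowns are exchanged, the pulldown differences were -0.22 for ZNF185, -1.28 for ZNF367 and -0.62 for ZNF32. Which of the tables carries the right names was not settled.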

How the results depend on the processing

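With the authors' deposited value table, 5 members passed with miR-17 (against 59), 1 with miR-638 (against 26), 2 between the microRNAs (against 21) and 0 by limma between the control pulldowns (against 9), where 4 of all genes passed and 24 members (7.48%, against 10.7% of all genes) had an unadjusted p under 0.05. There ZNF367, ZNF32 and ZNF185 differed between the control pulldowns by -1.28, -0.62 and -0.22, and ZNF789, ZNF524 and ZNF70 by 1.17, 1.05 and 0.93, opposite in sign, its control names being exchanged. ZNF395 and ZNF140 also reversed there between the microRNAs (-0.014 and -0.13), and ZNF140 did without miR-638 replicate 2 (-0.0083, the lowest of its values without 1 array, the highest being 0.21). Against NC2 alone 26 members passed with miR-17. With no detection filter 5 passed between the control pulldowns and 2 after the miR-638 mimic, where median scaling also gave 2. After that mimic 39 passed with the replicate block (against 4), 1 against NC1 alone, 10 against NC2 alone, 40 within replicates 1 and 2 and 10 within 3 and 4. Between the control mimics 77 passed with the block (against 16), 64 within replicates 1 and 2 and 36 within 3 and 4. In the pulldown, where numbers did not pair the arrays, the block gave 54, 35, 21 and 10 (miR-17, miR-638, between the microRNAs, NC2 against NC1). Without 1 array the counts ran from 21 to 68 with miR-17, 9 to 42 with miR-638, 10 to 39 between the microRNAs, 2 to 15 and 7 to 16 between the control pulldowns and mimics, and 2 to 4 after the miR-638 mimic. How many of all genes passed is given only for the mimic block, the replicate pairs and the control pulldowns of the authors' table. Under the other alternatives the member counts are therefore not read as particular to ZNF genes. Causes were not tested. Of 1094 pairs of a named gene result and an alternative, 928 kept direction and side of the threshold, 150 lost the call, 7 gained it and 9 reversed.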
